A study of Mus musculus with 6 samples.

Results

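MicroRNAs silence mRNAs through a chain of proteins that begins in the nucleus and ends at the poly(A) tail. The Microprocessor, made of the nuclease Drosha and its RNA-binding partner Dgcr8, releases hairpins from primary transcripts, and the nuclease Dicer1 cuts these hairpins into short duplexes. A strand of the duplex is loaded into an Argonaute protein (Ago1 to Ago4), and Argonaute binds a scaffold of the GW182 family (Tnrc6a, Tnrc6b or Tnrc6c) that recruits deadenylases, the Cnot complex among them, to the target mRNA. The mRNAs for these 10 proteins were followed in fetal mouse hepatocytes with and without Cnot3, a subunit of the Cnot complex. The 10 genes were taken by name. The arrays held 36 probe sets that name a member alone, among 45037 in all, and the brightest of a gene's sets, by its mean, stands for the gene, which gave 10 of 18193 genes. All 10 passed the filter on low intensity that left 16499 genes for testing.

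Hepatocytes were prepared from livers of control or Cnot3KO embryos at E16.5 and treated with actinomycin D (ActD), which stops transcription, for 0, 6 or 12 h. Cnot3KO embryos carried floxed Cnot3 alleles and Cre recombinase driven by the albumin promoter, and the controls, called wild type in the labels, belong to a set of genotypes that in the study includes floxed alleles without Cre and Cre with at most a single floxed allele. Cells of all groups had been cultured in medium with oncostatin M and dexamethasone. There was 1 array for each genotype and time, 6 in all, so no value has a replicate of its own. RNA was hybridised to Affymetrix Mouse Genome 430 2.0 arrays, and the values are intensities from the Robust Multi-array Average (RMA) on a linear scale, given here as intensity or, for differences, as log2. Because RMA brings arrays toward a common distribution, a change after ActD is a change relative to the rest of the array. The deposited values did not share a distribution exactly, with a 20th percentile from 19.7 to 22.4, and a further quantile normalization moved some of the values below. Probe sets bind with different strengths, so that intensities are compared between arrays and not between genes.

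The label check was partial. Cnot3 intensity was 296, 214 and 158 at 0, 6 and 12 h in control and 174, 174 and 146 in Cnot3KO cells, whereas a second Cnot3 probe set differed by -0.05 (log2) at 0 h. The position of these probes relative to the floxed exons is not given in the sources used here, and the study describes Cnot3 as still present in the Cnot3KO fetal liver and as depleted in the hepatocytes once cultured. The median intensity of an array lay between 69.7 and 72.4. Of the hepatocyte markers measured, albumin (Alb) was between 33652 and 35595 on the 6 arrays, whereas Tdo2, a marker of later maturation, lay between 22.3 and 26.8, below the array median. The summed intensity of 9 hepatocyte markers was 149087 to 166030 in control and 154933 to 161519 in Cnot3KO arrays. This sum is mostly Alb, Afp, Ttr, Apoa1 and Fgb, each between 22760 and 35595. Alb was at or near the highest value of each array, so the sum says little about a difference between genotypes. Of the 9 markers, 3 were higher and 6 lower in Cnot3KO cells over the 3 times, and Hnf4a differed by 0.52 ± 0.15 (log2, SE). Other cell types moved with genotype. Over the 3 times the 8 endothelial markers were lower in Cnot3KO cells in 8 of 8, the stellate and fibroblast markers in 8 of 8 tested and the macrophage markers in 8 of 9, and the summed intensities were 665 to 1630 against 446 to 1095, 17488 to 18679 against 8678 to 13798, and 7993 to 9956 against 6219 to 6549. The 4 cholangiocyte markers were higher in 4 of 4 over the 3 times, with sums of 15248 to 20310 in control and 26324 to 29592 in Cnot3KO arrays. These sums are mostly the keratins Krt19 and Krt7. Sox9 differed by 0.06 ± 0.17 (log2, SE) and was lower in Cnot3KO cells at 0 h (152 against 184), as Epcam was at 12 h (1534 against 1686). The 5 erythroid markers were lower in 5 of 5, with sums of 323 to 420 in control and 284 to 295 in Cnot3KO arrays. No marker was at 0. The part of these cells in the values below was not tested, and fewer cells of a type cannot be told apart from less RNA per cell.

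Of the 10 member loci, 2 contain mature microRNAs in RefSeq. They are shown because the microRNAs of Dgcr8 lie in hairpins of the Dgcr8 transcript itself, which the Microprocessor is known to cut. The Dgcr8 mRNA thus encodes a part of the complex and is also a substrate of it. The capitals mark the seed, bases 2 to 8 from the 5′ end, and the sequences and positions are from RefSeq on GRCm38.p6. Both arms of miR-3618 (chr16:18284602-18284623 and chr16:18284562-18284583) and of miR-1306 (chr16:18284288-18284310 and chr16:18284248-18284268) lie on the minus strand, and miR-5113 of the Tnrc6b locus (chr15:80940049-80940071) on the plus strand. None of the 5 shares its seed with another mature microRNA in the table of 1738 entries.
miR-3618-5p: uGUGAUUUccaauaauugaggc
miR-3618-3p: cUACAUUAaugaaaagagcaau
miR-1306-5p: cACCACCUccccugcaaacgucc
miR-1306-3p: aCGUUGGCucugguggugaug
miR-5113: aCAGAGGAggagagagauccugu
The arrays measure host transcripts and mRNAs, and no mature microRNA was measured.

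Before ActD, none of the 10 mRNAs differed more than 1.5-fold between genotypes by its representative probe set (0 of 10, against 6.87% of 16110 genes higher and 2.99% lower in Cnot3KO cells). The median difference of the members was -0.07 (log2, Cnot3KO minus control) and that of all genes 0.04. The widest differences were those of Ago2, 1.47-fold lower, Ago1, 1.31-fold lower, and Dgcr8, 1.27-fold higher. A second bright set of Dicer1 was at -0.95, past 1.5-fold on the lower side. At 6 h of ActD Ago2 alone was past 1.5-fold, on the lower side, against 7.25% of genes lower and 18.1% higher. At 12 h Dicer1, Tnrc6a and Dgcr8 were past it on the higher side (3 of 10, against 27.7% of genes) and Ago2 and Drosha on the lower (2 of 10, against 13.9%). These shares are close to those of all genes, and with 1 array a group the counts carry no test. As a guide to the spread between probe sets of a gene, the SD of the genotype difference at 0 h was 0.24 per set (log2, 4117 genes). It was wider for the changes described below, at 0.42 for the difference in change over 12 h and 0.51 for the change in control cells. The sets of a gene were read on the same arrays, so that these SDs leave out error between arrays.

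**Figure D1:**
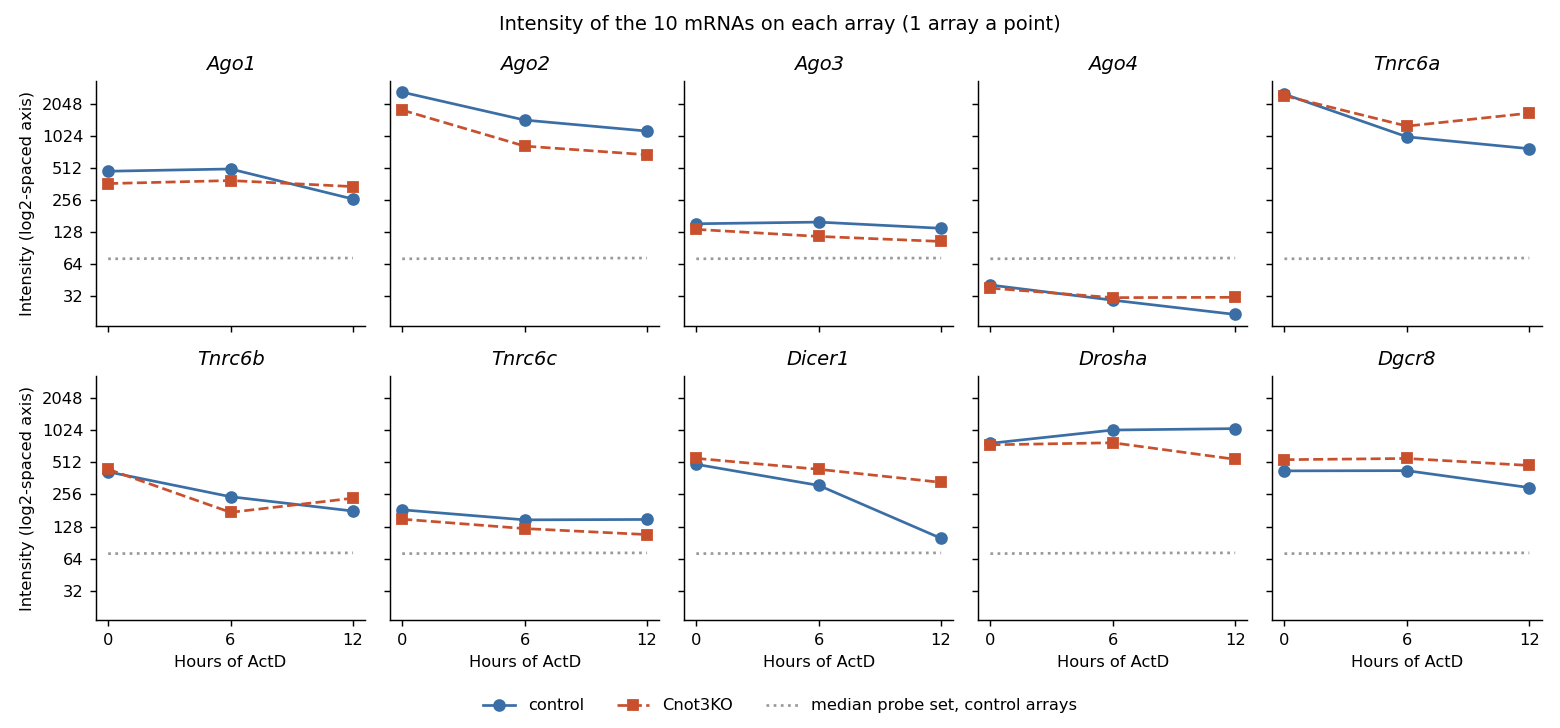
Intensity (log2-spaced axis) of the 10 mRNAs against hours of ActD, with 1 array a point, control as circles and Cnot3KO as squares; the dotted line is the median probe set of the control arrays. Dicer1 and Tnrc6a diverged by 12 h (99.1 against 333, and 771 against 1664), Drosha diverged the other way (1065 against 548), Ago2 was lower in Cnot3KO cells at each time, and Ago4 stayed below the median.

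In control cells, 4 of the 10 mRNAs fell over 12 h of ActD, namely Dicer1, Tnrc6a, Ago2 and Ago4, and none rose (limma, adjusted over 16499 genes), against 14.5% of all genes that fell and 7.68% that rose. The median change of the members was -0.89 (log2) and that of all genes 0.15, and 9 of 10 values were below 0. In Cnot3KO cells no member passed the same test, as few genes did (0.182% higher and 0.182% lower), although all 10 values were below 0, with a median of -0.47 against 0.08 over all genes. At an unadjusted p under 0.05 Ago2 alone was lower in Cnot3KO cells after ActD (1 of 10, against 8.25% of genes, with 9.32% on the other side). The difference between the genotypes in the change passed for no member and for no gene at all (0% higher, 0% lower). Before adjustment (p under 0.05) Dicer1 was above 0 and Drosha below it, against 12.8% and 4.95% of all genes, so that these counts do not set the members apart. The median difference in change was 0.33 for the members and -0.04 for all genes, and 6 of 10 members were above 0. These p-values measure how well the 3 times of a genotype fit a line, with 2 residual degrees of freedom, and not the spread between embryos.

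**Figure D2:**
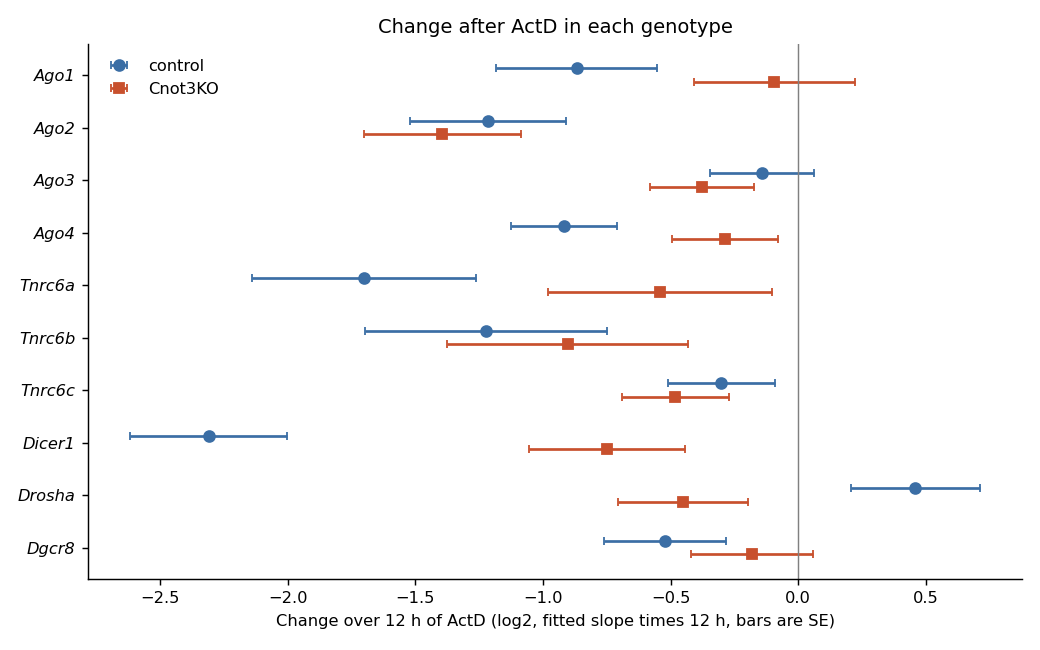
Fitted change over 12 h of ActD (log2) for each mRNA in control (circles) and Cnot3KO (squares) cells, with bars of 1 SE. Dicer1, Tnrc6a, Ago2 and Ago4 fell in control cells, Drosha alone was above 0 there (0.46), and Dicer1 and Drosha had the bars farthest apart.

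Dicer1, the nuclease that makes mature microRNAs in the cytoplasm, showed the widest gap between the genotypes. Its intensity was 492, 312 and 99.1 at 0, 6 and 12 h in control cells and 559, 441 and 333 in Cnot3KO cells. The genotypes were close before ActD, and the control value at 12 h was the lowest of the 6. In control cells the mRNA fell by 2.31 ± 0.31 (log2, SE, adjusted p = 0.0117), which left 20.2% at 12 h. The Cnot3KO change was -0.75 ± 0.31 (adjusted p = 0.286), which left 59.5%. The difference in change was 1.56 ± 0.43, with a 95% interval of 0.50 to 2.63 and an adjusted p of 0.193 by limma, so that it did not pass over all genes. Most of the control loss came late, with -0.66 from 0 to 6 h and -1.65 from 6 to 12 h. The corresponding half-lives, the time for the fitted line to lose 1 log2 unit relative to the other mRNAs, were 5.19 h in control and 16.02 h in Cnot3KO cells. A second Dicer1 probe set read 297, 153 and 112 in control and 154, 119 and 98.5 in Cnot3KO cells. It placed Cnot3KO below control at every time, by 0.95 (log2) at 0 h where the first set had Cnot3KO 0.19 above, while it too had a smaller loss in Cnot3KO cells (-0.65 against -1.40, a difference of 0.76). The sets thus disagree on the level and share the direction of the difference in change.

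Drosha, the nuclear nuclease of the Microprocessor, behaved in the opposite way. Its intensity was 775, 1033 and 1065 in control and 750, 784 and 548 in Cnot3KO cells. The genotypes were alike at 0 h, and thereafter the control values were the higher ones. Drosha had the only positive change among the members in control cells, 0.46 ± 0.25 (adjusted p = 0.215), against -0.45 ± 0.25 in Cnot3KO cells (adjusted p = 0.431). The difference in change was -0.91 ± 0.36, with a 95% interval of -1.79 to -0.03 and an adjusted p of 0.272. The representative Drosha set is of shared sequence. A second bright probe set, not of that kind, at 346, 475 and 335 in control and 352, 331 and 216 in Cnot3KO cells, gave -0.66. In that set the control change was -0.05, so that a control value above its start at 12 h was read by the first set and not by the second, whereas both read Cnot3KO below control at 6 and 12 h. A dim set gave -0.33.

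Dgcr8, which binds the hairpin for Drosha, was higher in Cnot3KO cells at each time. Its intensity was 427, 429 and 297 in control and 544, 558 and 480 in Cnot3KO cells. The difference was 0.35 at 0 h, 0.38 at 6 h and 0.69 at 12 h, and over the 3 times 0.47 ± 0.15 (log2, SE, 95% interval 0.10 to 0.84, adjusted p = 0.0942 by limma). For a difference over the 3 times, here and below, the error measures how steady it was between times and not the spread between embryos. After quantile normalization the difference over the 3 times was 0.26 (adjusted p = 0.238 by limma). A second bright set, at 292, 225 and 141 in control and 377, 432 and 375 in Cnot3KO cells, had a like difference at 0 h (0.37) and a wider one at 12 h (1.41). The change over 12 h was -0.52 ± 0.24 in control and -0.18 ± 0.24 in Cnot3KO cells by the first set and -1.05 and -0.01 by the second. The difference in change was thus 0.34 and 1.04, against -0.24 and 0.11 by a further pair of dim sets. Both partners of the Microprocessor were thus measured with readings after ActD on opposite sides, Drosha lower and Dgcr8 higher in Cnot3KO cells.

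Among the Argonautes, which carry the microRNA, Ago2 is the member able to cut a target itself. Ago2 intensity was 2621, 1433 and 1129 in control and 1778, 816 and 677 in Cnot3KO cells. It was lower in Cnot3KO cells at each time, by 0.56, 0.81 and 0.74 (log2). Over the 3 times the difference was -0.70 ± 0.14 (95% interval -1.05 to -0.35), which did not pass (adjusted p = 0.0543 by limma). The smallest of any gene was 0.0499, and 163 genes lay between that and 0.05, so that these values do not rank Ago2 near the top. With the brightest set not of shared sequence the difference was -0.41 (adjusted p = 0.163 by limma). Over the alternatives the adjusted p ran from 0.00552 to 0.374. The 4 Ago2 probe sets, all above the array median on the 6 arrays, were lower in Cnot3KO cells at 0 h, between -0.56 and -0.06, and at 6 h, between -0.98 and -0.54. Ago2 fell in control cells by 1.22 ± 0.31 (adjusted p = 0.0416, 43.1% left at 12 h), and the Cnot3KO change was -1.39 ± 0.31 (adjusted p = 0.0964, 38.1% left). These values rest on a probe set of shared sequence. With the brightest set not of that kind the control change was -0.68 and not called (adjusted p = 0.0687 by limma). The difference in change was -0.18 ± 0.43, with a 95% interval of -1.25 to 0.89, and the half-lives were 9.87 h and 8.61 h. Among the members with a called control loss Ago2 was the one whose difference in change was not above 0, which held in all 4 probe sets (-0.55 to -0.18).

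The other Argonautes are known to silence mainly without cutting. Ago1 had a single probe set, at 474, 497 and 260 in control and 363, 387 and 340 in Cnot3KO cells. Cnot3KO was thus lower at 0 and 6 h and higher at 12 h, where the control value dropped, and the difference in change was 0.77 ± 0.45 (95% interval -0.32 to 1.87). Ago3 read 152, 158 and 138 in control and 135, 116 and 104 in Cnot3KO cells, lower in Cnot3KO at each time, with -0.34 ± 0.14 over the 3 times (adjusted p = 0.159). Its 4 other probe sets were dim on at least 1 array and gave differences in change from -0.68 to 1.31, so that the Ago3 sets do not share a direction. The set at 1.31 was above the array median at 0 h (136 in control and 114 in Cnot3KO cells) and read 39.0 and 81.2 at 12 h. Ago4 was below the array median throughout, at 40.4, 29.1 and 21.4 in control and 37.8, 30.7 and 31.0 in Cnot3KO cells. Ago4 fell in control cells by 0.92 ± 0.21 (adjusted p = 0.0322), to just below the 20th percentile of the array, which was 22.4 at 12 h. Its difference in change was 0.63 ± 0.29 (95% interval -0.09 to 1.35). A second Ago4 set lay at 14.6 to 25.2.

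Of the GW182 scaffolds, which bridge Argonaute and the deadenylases, Tnrc6a was the one with a called change. Its intensity was 2506, 997 and 771 in control and 2424, 1257 and 1664 in Cnot3KO cells. The genotypes started alike and dropped together by 6 h, and by 12 h the control value had dropped further while the Cnot3KO value stood above that at 6 h. In control cells Tnrc6a fell by 1.70 ± 0.44 (adjusted p = 0.0436, 30.8% left), and the Cnot3KO change was -0.54 ± 0.44 (adjusted p = 0.606, 68.6% left). The representative Tnrc6a set is of shared sequence, and the brightest set not of that kind gave a control change of -2.18 (adjusted p = 0.0461 by limma). The difference in change was 1.16 ± 0.62 (95% interval -0.37 to 2.68, adjusted p = 0.369). Tnrc6a had 9 probe sets, of which the 6 above the array median on all arrays gave differences in change from 0.33 to 1.93. The 3 other sets gave 1.64, -0.45 and 0.23, the last 2 at intensities of at most 46.9. The same 12 h reading, Cnot3KO above control, was present in all 6 bright sets, but these sets were read on the same 6 arrays and are not replicates of the condition.

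Tnrc6b read 418, 244 and 179 in control and 442, 174 and 236 in Cnot3KO cells. Here too the Cnot3KO value at 12 h was above that at 6 h, but the genotypes crossed, and the difference in change was 0.32 ± 0.67 (95% interval -1.32 to 1.96). The 3 Tnrc6b sets disagreed on its sign, from -0.47 to 0.47, and their changes over 12 h lay between -2.04 and -0.52 (log2) in control and between -1.57 and -0.90 in Cnot3KO cells. Tnrc6c read 184, 148 and 149 in control and 150, 122 and 108 in Cnot3KO cells, lower in Cnot3KO at each time. The difference over the 3 times was -0.35 ± 0.14 (95% interval -0.69 to 0.00, adjusted p = 0.151 by limma). The difference in change was -0.18 ± 0.30 by this set and 0.81 and 0.48 by the dimmer ones. The set at 0.81 started near the first, at 179 in control and 141 in Cnot3KO cells, and read 69.0 and 95.4 at 12 h. Sets are called bright by all 6 arrays, so that a steep loss can itself make a set count as dim. The scaffolds therefore had no shared pattern between genotypes, and a gap after ActD shared by several bright sets of a gene was found for Tnrc6a.

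**Figure D3:**
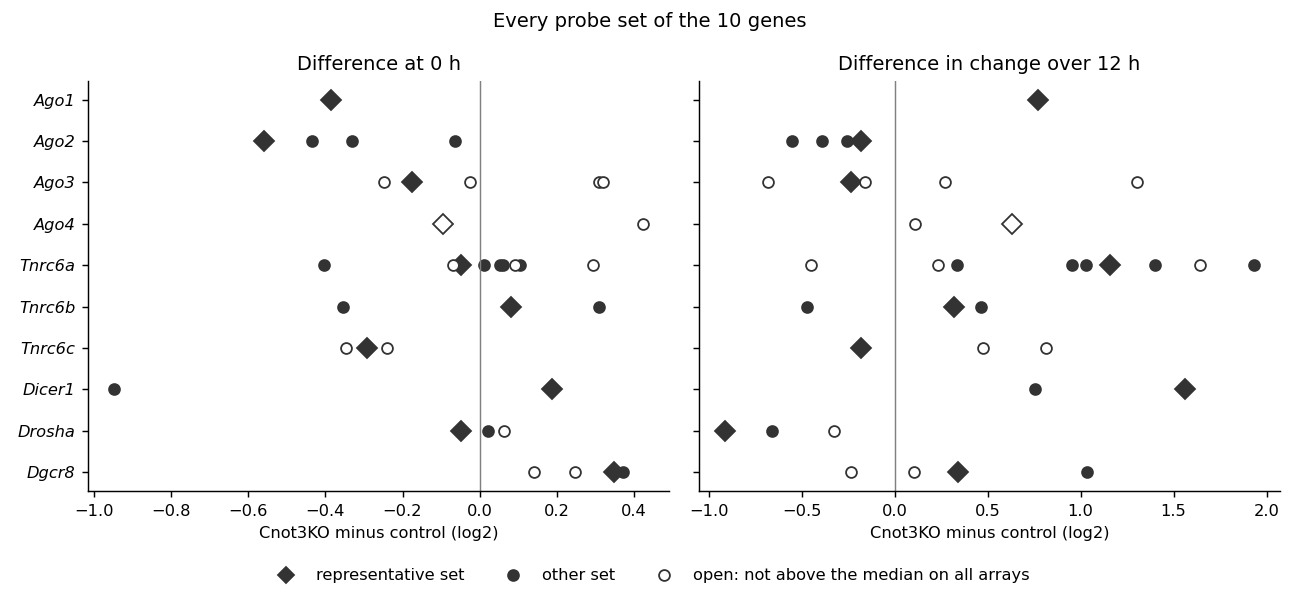
Cnot3KO minus control (log2) for every probe set of the 10 genes, at 0 h (left) and for the change over 12 h of ActD (right); diamonds are the representative sets, and open symbols are sets not above the array median on all 6 arrays. All 4 Ago2 sets lie below 0 in both panels, the bright Tnrc6a sets lie between 0.33 and 1.93 on the right, and the Dicer1 sets are split on the left (-0.95 and 0.19).

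Tested over the 3 times with time as a term, no member passed for genotype (0 of 10, against 0.703% of genes higher and 0.285% lower). In this test the 3 times stand in for replicates, so that its p-values measure how steady a difference was between times. With no adjustment (p under 0.05) Dicer1 and Dgcr8 were higher and Ago2 lower, against 22.4% and 11.0% of all genes, which is no more than the share of all genes. The genotype difference of Dicer1 was 0.81 ± 0.31 (95% interval 0.04 to 1.58, adjusted p = 0.136) and was 0.19 at 0 h and 1.75 at 12 h. The second Dicer1 set gave the opposite sign, with -0.50 over the 3 times, -0.95 at 0 h and -0.19 at 12 h, and the mean of both sets gave 0.16. Without the 0 h arrays, 5 members passed, namely Ago2 and Drosha as lower and Dicer1, Tnrc6a and Dgcr8 as higher, with adjusted p between 0.00255 and 0.0465, but so did 35.3% of all genes. That setting leaves 2 arrays a genotype.

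The calls in control cells differed in how firmly they held. Dicer1 fell under every alternative that could be tested (adjusted p 0.000499 to 0.0183). Ago2 lost the call in 3 alternatives (up to 0.0687), Ago4 in 3 (up to 0.0673) and Tnrc6a in 4 (up to 0.0675), each with the same sign. With the control arrays fitted alone, Tnrc6b passed as well (adjusted p = 0.0152) and Ago4 did not (0.0562).

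The wider pathway was described by a list of 45 genes, of which 42 were on the array and 41 were tested. Before ActD 3 of 41 were more than 1.5-fold higher in Cnot3KO cells and 0 lower, against 6.87% and 2.99% of all genes, and the median difference was 0.17 (log2) against 0.04 for all genes. Over 12 h of ActD 9 fell in control cells and 0 rose (9 of 41, against 14.5% of genes that fell), while 0 passed in Cnot3KO cells and 0 for the difference in change. The median change was -0.42 in control and 0.00 in Cnot3KO cells, against 0.15 and 0.08 for all genes. The difference in change was above 0 for 29 of 41, with a median of 0.33 against -0.04 for all genes. The share of all genes above 0 was not computed, so that the count of 29 has no background beside it.

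Fxr1, an RNA-binding protein of the fragile X family that associates with Argonaute, was the pathway gene that passed for genotype. It read 1735, 1878 and 1154 in control and 3474, 4014 and 3329 in Cnot3KO cells. It was 2.003-fold higher at 0 h and 1.21 ± 0.17 (log2) higher over the 3 times (adjusted p = 0.0499), a call that was lost in 8 of 12 alternatives (adjusted p up to 0.368). Fmr1 of the same family fell in control cells (-0.79 ± 0.20, adjusted p = 0.0427), but the mean of its probe sets gave -0.07.

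The terminal uridylyltransferases Tut4 and Tut7, which tail precursor let-7 and other RNAs, fell in control cells. Tut4 read 1266, 294 and 187 in control and 2041, 823 and 1224 in Cnot3KO cells, and Tut7 read 835, 514 and 317 in control and 1018, 701 and 901 in Cnot3KO cells. As with Tnrc6a, the Cnot3KO value at 12 h was above that at 6 h. Tut4 fell by 2.76 ± 0.60 in control cells (adjusted p = 0.0293) and Tut7 by 1.39 ± 0.29 (adjusted p = 0.0269). With the mean over its probe sets Tut7 lost the call (-0.79, adjusted p = 0.0633). The differences in change, 2.03 ± 0.84 and 1.22 ± 0.41, did not pass (adjusted p = 0.287 and 0.234).

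Also called as fallen in control cells were Eif4enif1 (4E-T, which binds the cap-binding protein eIF4E), Edc4 (a scaffold of the decapping enzyme), Lsm14a and Patl1 (components of P-bodies). Eif4enif1 read 646, 229 and 150 in control and 903, 582 and 652 in Cnot3KO cells. Its control change was -2.10 ± 0.34 (adjusted p = 0.0161). Those of Lsm14a, Patl1 and Edc4 were -1.61 ± 0.34, -1.32 ± 0.22 and -0.85 ± 0.20 (adjusted p = 0.0285, 0.0164 and 0.0374). Patl1 lost the call with the mean over its probe sets (-0.43, adjusted p = 0.122), and Edc4 with quantile normalization (-0.50, adjusted p = 0.114) and with the control arrays fitted alone (adjusted p = 0.0784). In Cnot3KO cells the changes of these 4 lay between -0.47 and 0.26. Edc4 was also 1.55-fold higher at 0 h in Cnot3KO cells, as Tut4 was 1.61-fold higher, and the immunophilin Fkbp4, a co-chaperone, was 1.47-fold higher. The chaperone Hspa8, which helps to load Argonaute, and the helicase Ddx17, a cofactor of the Microprocessor, fell by 1.69 ± 0.23 and 1.10 ± 0.20 (adjusted p = 0.0118 and 0.0192). Both rest on probe sets of shared sequence, and other sets gave -0.39 and -0.05.

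**Figure D4:**
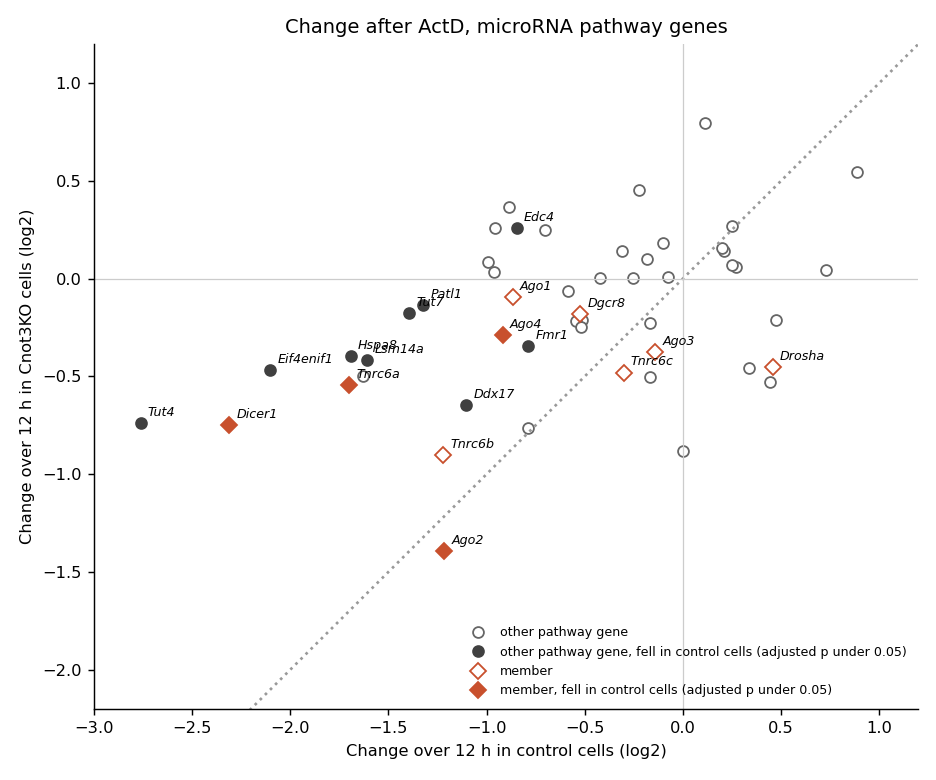
Change over 12 h of ActD (log2) in Cnot3KO cells (vertical) against control cells (horizontal), with diamonds for the 10 members and circles for 41 other microRNA pathway genes, filled where the gene fell in control cells; the dotted line marks equal change. Ago2 lies near the dotted line, Tut4, Dicer1 and Tnrc6a lie well above it, and Drosha lies below it.

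Of 24 transcripts that host microRNAs, 19 were on the array and 18 were tested, and 4 fell in control cells (against 14.5% of all genes). They were the pantothenate kinases Pank1 and Pank3, the sterol regulator Srebf2 and the imprinted gene Mest. Their microRNAs are shown because Pank1 and Pank3 host a pair with a shared seed, which no other mature microRNA in the table has. The positions on GRCm38.p6 are chr19:34820700-34820722 (minus strand), chr11:35782447-35782469, chr15:82198127-82198147 and chr6:30741314-30741336 (plus strand).
miR-107-3p, Pank1: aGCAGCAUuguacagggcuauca
miR-103-3p, Pank3: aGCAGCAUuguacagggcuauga
miR-33-5p, Srebf2: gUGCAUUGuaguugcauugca
miR-335-5p, Mest: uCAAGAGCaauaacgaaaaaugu
The hosts of the shared seed differed after ActD. Pank1 read 1190, 733 and 233 in control and 772, 537 and 293 in Cnot3KO cells, so that both genotypes dropped. Pank3 read 2123, 674 and 470 in control and 1862, 1442 and 1504 in Cnot3KO cells, where the loss was smaller. The control changes were -2.35 ± 0.31 for Pank1 and -2.18 ± 0.35 for Pank3 (adjusted p = 0.0117 and 0.0153), and those in Cnot3KO cells were -1.40 ± 0.31 and -0.31 ± 0.35 (adjusted p = 0.0979 and 0.726). With the mean over their probe sets the control changes of Pank1 and Pank3 were -1.49 and -1.06, and both kept the call. Srebf2 fell by 0.97 ± 0.25 in control cells (adjusted p = 0.0423) and had a like change in Cnot3KO cells (-1.10 ± 0.25, adjusted p = 0.102). The control call of Srebf2 was lost in 3 alternatives (-0.97 to -0.55, adjusted p up to 0.0878). Mest fell by 2.08 ± 0.32 in control cells (adjusted p = 0.0147) and was 1.71-fold lower in Cnot3KO cells at 0 h. The level of a host mRNA says nothing here about the level of its microRNA, which was not measured.

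The genes whose profiles over the 6 arrays were most like those of Ago2 and Dicer1 were found among 10518 genes above the array median on all arrays. For Ago2 they were Tlcd4, Lcor and Slc39a14, with root mean square differences of 0.12, 0.13 and 0.13 (log2) after centring. For Dicer1 they were Rras2, Ubap2 and Melk, with 0.10, 0.11 and 0.12. Melk, for example, read 761, 476 and 178 in control and 803, 786 and 509 in Cnot3KO cells, and Lcor read 3938, 2198 and 2015 in control and 2773, 1328 and 1297 in Cnot3KO cells. With 6 arrays and so many genes a close profile is a description of these arrays.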

How the data were processed

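Total RNA of cultured fetal hepatocytes was measured on 6 arrays, 1 for each genotype and time, and groups were taken from the labels. The authors deposited intensities on a linear scale, computed with RMA (background correction, normalization toward a common distribution, 1 value a probe set), whose version is not given in the sources used here. Log2 was taken here. Gene names came from the platform annotation (probe sets: 34945 with 1 symbol, 932 with several, 9160 with none), with symbols updated to RefSeq (GRCm38.p6), and sets with several symbols or none were not used. A gene was kept if it exceeded the 20th percentile of at least 1 array, which left 16499 genes, and 16110 at 0 h.

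The difference at 0 h was counted beyond 1.5-fold with no test. limma 3.58.1 (R 4.3.3, lmFit and eBayes) tested genotype with time as a factor, and, in a model with an intercept and a slope on hours for each genotype, the change over 12 h in each genotype and its difference. The fitted change equals the 12 h minus the 0 h value. P-values were adjusted over all genes by the Benjamini-Hochberg method at 0.05, with 2 residual degrees of freedom. The models were run on simulated data with known changes added and noise drawn from the variances of these same fits. Such data cannot show the spread between embryos, and no result is drawn from them here. The number of arrays limits the precision.

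The text names all members, with their other probe sets as a check, Cnot3, genes of both lists that passed a test or were among the 4 with the widest difference at 0 h, and the 3 genes nearest in profile to Ago2 and Dicer1. The members and lists were chosen with earlier results of these data known. Marker lists covered hepatocytes and 5 other cell types. Mature microRNA sequences were read from RefSeq with Python 3.11.15.

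The settings varied were the filter (none, or the 50th percentile), the choice of probe set (the mean over a gene's sets, every set tested separately, or sets without a suffix for shared sequence), quantile normalization, centring on 46 ribosomal protein genes, an offset of 16 before log2, eBayes with trend and robust estimates, a 2-fold limit, other times, leaving out each time and, chosen after seeing the data, each genotype fitted alone.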

Additional observations from a re-analysis of the deposited data

How the results depend on the processing

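Of 10 members, 0 were past 1.5-fold at 0 h, and the count was 1 after quantile normalization (Ago2), 1 with the 6 h arrays and 5 with the 12 h arrays in place of 0 h. With the 12 h arrays Tnrc6a turned from -0.05 to 1.109 (log2). The count for genotype over the 3 times was 0, and it was 1 (Ago2) with the mean over a gene's sets or with trend and robust estimates, and 5 without the 0 h arrays. The count in control cells was 4, and it was 2 with the mean over a gene's sets, with every set tested separately and with quantile normalization, and 3 or 4 otherwise. The counts in Cnot3KO cells and for the difference in change were 0 in every alternative run. Over all genes the genotype test called 163, against 0 without the filter and 5809 without the 0 h arrays, and the test in Cnot3KO cells called 60, against 0 to 258. Of 699 alternative values of single genes, 626 kept their side of the threshold or moved by less than the error, 31 lost a call, 15 gained it, 26 moved and 1 reversed, and 30 uncalled values changed sign. The count of 626 is no measure of firmness. A change of filter or of eBayes cannot move an estimate, and uncalled values that stayed uncalled count as kept. Dicer1 at 0 h, for example, counts as kept although the mean over its sets turned it from 0.19 to -0.38 (log2). Centring on ribosomal protein genes moved the median of all genes by -0.17 in control and -0.10 in Cnot3KO cells, and the 50th percentile filter by -0.12 in control cells. The cause of these shifts was not tested. The arrays have no replicate, so the spread between embryos is unknown, and RMA removes any loss common to all mRNAs.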

Other observations

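Of the 18 host transcripts tested, 3 were more than 1.5-fold higher in Cnot3KO cells before ActD and 2 lower (Mest and Pank1, 1.71-fold and 1.54-fold), against 6.87% and 2.99% of all genes. Meg3 and Rian are imprinted non-coding RNAs of a cluster that carries many microRNAs, and Dleu2 hosts miR-15a and miR-16-1. Meg3 read 2442, 1730 and 1758 at 0, 6 and 12 h in control and 3793, 2269 and 2720 in Cnot3KO cells, higher in Cnot3KO at each time (0.55 ± 0.14, log2, adjusted p = 0.069 by limma). Rian read 328, 400 and 492 in control and 565, 407 and 237 in Cnot3KO cells. It was 1.72-fold higher at 0 h, and its change over 12 h was 0.58 ± 0.21 in control and -1.26 ± 0.21 in Cnot3KO cells. The difference in change of Rian, -1.84 ± 0.29, had an adjusted p of 0.179. This was the smallest value of any gene but a tied one. The stellate marker Reln shared it and had the smaller unadjusted p (0.000679 against 0.000811 for Rian, limma). Dleu2 read 90.3, 211 and 231 in control and 163, 230 and 170 in Cnot3KO cells. It was 1.80-fold higher at 0 h and lower at 12 h.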
